A study of Mus musculus with 23 samples.

Results

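Ribosome biogenesis and the enzymes that feed cell growth were followed through 41 listed genes in mouse B cell lymphoma lines and in spleens. The genes encode nucleolar proteins, subunits of RNA polymerase I, and enzymes of polyamine and nucleotide synthesis. They were chosen from a list of gene symbols and found on the arrays through the RefSeq accession of each probe. Of the 41 genes, 40 matched a probe and 1, Nop56, did not. All 40 were among the 13720 genes tested, and the probe used for each was well above background in all 22 samples.

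The study used one-colour Agilent whole-genome arrays to compare cultured B cell lymphoma lines with normal spleen. All mice carried a Cd3e knockout, which takes away part of the T cell receptor, on a mixed C57BL/6 x 129 strain. The first group held 9 B cell lymphoma lines from spleens of mice that also lacked Atm, a kinase that responds to broken DNA. The lines grew in suspension, and their sex is not given. The second group held 6 spleens without tumour from Atm knockout mice, all female. The third group held 7 spleens from Atm wild-type mice, 4 male and 3 female. The ages of the mice are not given in the labels. The lines came on 10 arrays, and the 2 of them that carry the same title were averaged as line 8. Each line is a cultured population of 1 cell type, whereas a spleen is a mixture of cell types. In such bulk samples fewer cells of a type and less RNA per cell cannot be told apart.

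A ribosome is assembled in the nucleolus. RNA polymerase I transcribes the long precursor of the ribosomal RNAs. Small nucleolar ribonucleoproteins (snoRNPs) then modify its nucleotides, and a large set of assembly factors helps to cut and fold it into the small and the large subunit. Ornithine decarboxylase and spermidine synthase make polyamines, which bind RNA, and the purine and pyrimidine pathways supply its building blocks. These genes are well known as targets of the MYC transcription factor, which binds DNA together with MAX at the E-box.

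The canonical E-box, CACGTG on both strands, was therefore searched in RefSeq promoter windows of assembly GRCm38.p6, which run from 250 bases before to 50 bases after a start site. Of the 41 genes 36 had a window. Npm1, Fbl, Bop1, Rrp12 and Srm had no entry. The motif was present in 9 of the 36 genes (25%), against 8.91% of 17492 protein-coding genes, 22.5% of 80 other ribosome biogenesis genes and 9.84% of 61 ribosomal protein genes. The 9 genes were Nop2, Pes1, Utp20, Mybbp1a, Grwd1, Tsr1, Wdr43, Nme1 and Paics. The runs below show the motif, in capitals, with 12 bases on each side on the strand of the gene, so that its place and its neighbours can be compared between genes. The runs of Utp20, Mybbp1a and Grwd1 reach past the end of their windows and are not shown.
Nop2, chr6:125131811-125131840, plus strand, motif at -60 from the start: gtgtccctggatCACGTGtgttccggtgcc
Pes1, chr11:3963965-3963994, plus strand, motif at 2: ccctaggcagggCACGTGcgggaggaagta
Tsr1, chr11:74898092-74898121, plus strand, motif at 24: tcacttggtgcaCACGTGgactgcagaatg
Wdr43, chr17:71616220-71616249, plus strand, motif at 17: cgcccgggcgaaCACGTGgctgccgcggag
Nme1, first start, chr11:93968273-93968302, minus strand, motif at -18: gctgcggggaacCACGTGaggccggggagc
Nme1, second start, chr11:93968037-93968066, minus strand, motif at -29: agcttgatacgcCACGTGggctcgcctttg
Paics, chr5:76951087-76951116, plus strand, motif at -203: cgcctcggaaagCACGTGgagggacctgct
All runs share the 6 bases of the motif, and their flanks differ. The motif lay within 60 bases of the start in every gene shown but Paics. The start of Paics lies 276 bases from that of Ppat, which is read from the opposite strand of chromosome 5.

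A pair of other motifs was searched on both strands. The ETS core CCGGAAG was present in 12 of the 36 genes (33.3%, against 12.9% of protein-coding genes), and the GC box GGGCGG in 25 (69.4%, against 49.2%). Neither share was particular to these genes. Other ribosome biogenesis genes held the ETS core in 42.5% and the GC box in 67.5%, and ribosomal protein genes in 41% and 63.9%. The median GC content of the windows was 58.2% for these genes and 56.3% for protein-coding genes. Odc1 encodes ornithine decarboxylase, the rate-limiting enzyme of polyamine synthesis. The sequence before its earliest RefSeq start is shown because, on the probes used, Odc1 was the gene that differed in every comparison below. It lies on the plus strand at chr12:17544623-17544807 and holds 3 GC boxes, in capitals, and no E-box.
Odc1: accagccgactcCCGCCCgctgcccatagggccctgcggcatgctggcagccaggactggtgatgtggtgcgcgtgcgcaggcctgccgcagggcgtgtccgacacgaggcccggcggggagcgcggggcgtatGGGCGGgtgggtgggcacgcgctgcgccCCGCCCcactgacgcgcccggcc

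All levels below are log2 values relative to the 75th percentile of the array, and all differences are log2 differences of these levels with the standard error of a limma fit. A gene was called where its p, adjusted over all 13720 genes by the Benjamini-Hochberg method, was under 0.05. The 75th percentile itself was 491 to 788 intensity units in the lines and 570 to 896 in the spleens. In the lines 54.9% to 62.3% of spots were well above background, and in the spleens 61.7% to 67.7%. Atm, whose deletion defines the knockout, ranged from -0.67 to 0.00 in wild-type spleens, from -2.69 to -2.07 in knockout spleens and from -4.38 to -2.77 in the lines, so its lower level goes with the labels. Cd3e, deleted in all mice, still gave a signal and was higher in the lines (-3.30 to -1.22) than in the spleens (-4.65 to -3.86). Where the probes of both genes lie relative to the deletions is not given. Nothing in the labels says that the lines or the spleens were separate cultures or litters so the p-values measure the spread between these samples.

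Most of the genes were higher in the lymphoma lines than in knockout spleens. By limma, 31 of the 40 genes rose and 0 fell (31 and 0 also at an unadjusted p under 0.05), while 41.6% of all genes tested rose and 28.9% fell. The differences of all 40 lay above 0, from 0.02 for Nme1 to 1.44 for Paics, and their median was 0.63 against 0.18 over all genes. Those called and at least 2-fold higher numbered 10 (17.9% of all genes), and 18 genes had no line as low as the highest knockout spleen (24.1% of all genes). Against wild-type spleens 32 rose and 0 fell by limma, with 32 and 0 also at an unadjusted p under 0.05 (40.4% and 30.9% of all genes), with a median of 0.76 against 0.14. There 15 genes were called and at least 2-fold higher (19.2%), and 20 were higher in every line than in every wild-type spleen (24%). Both comparisons share the lines, so they are not independent of each other.

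The scale on which the arrays are compared sets how many genes pass. When each array was centred on its median, the median difference of all genes moved from 0.18 to 0.83, 63.3% of all genes rose and 18.2% fell, and 40 of the 40 genes rose. Their median was then 1.29. Against wild-type spleens 40 rose under this centring as well (62.2% of all genes rose and 19.2% fell). With quantile normalisation 21 of the 40 rose against knockout spleens (39.7% of all genes rose and 30.7% fell), and their median was 0.41 against 0.14. Against wild-type spleens 26 rose (40% and 33.3% of all genes). With normexp background correction 25 rose against knockout spleens (32.6% of all genes rose and 17.8% fell), and the median of the 40 genes was 0.51 against 0.33, a smaller gap to all genes than in the main setting. Against wild-type spleens 34 rose (32.4% and 21.9%), with a median of 0.73 against -0.04. The calls of Fbl, Nop2, Nop14, Pes1, Gnl3 and Mybbp1a against knockout spleens were lost under both quantile normalisation and normexp, and those of Rrp9, Ebna1bp2, Ppan and Cad under quantile normalisation.

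**Figure D1:**
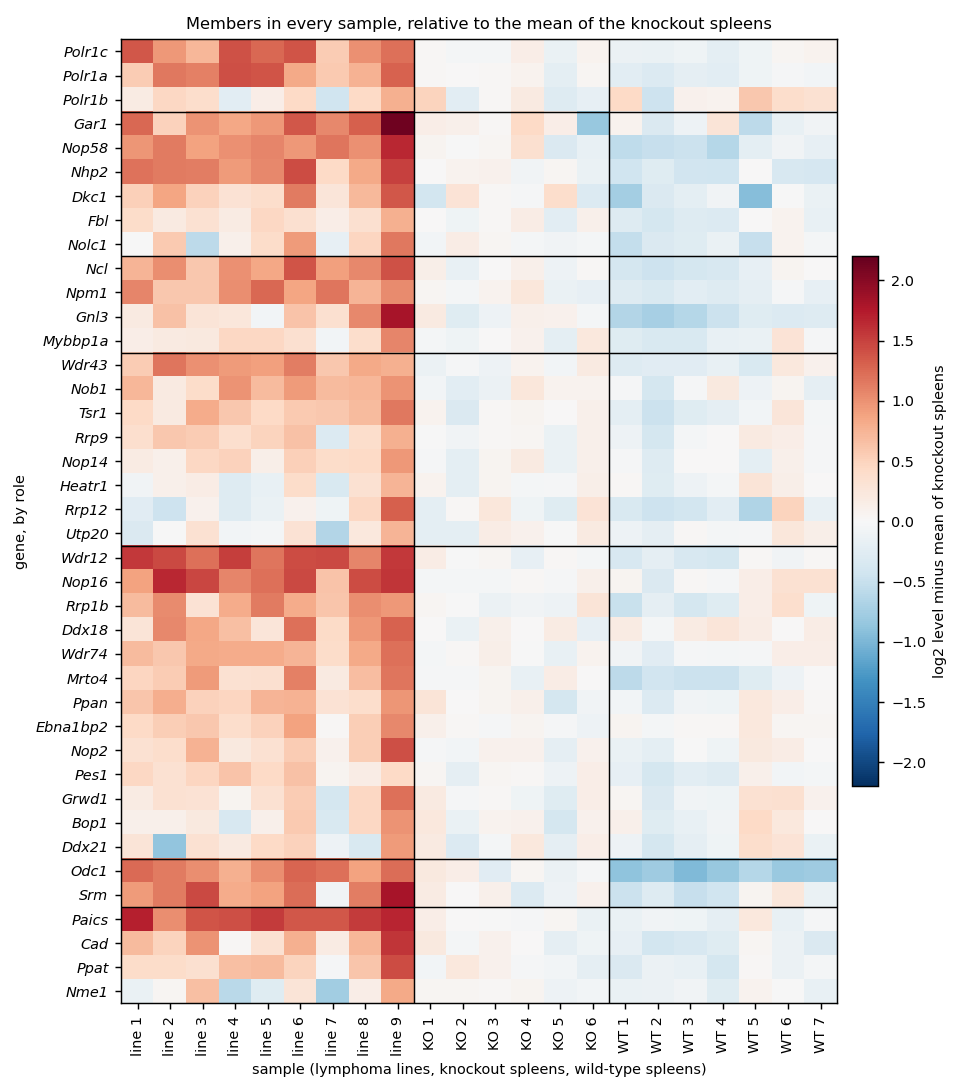
Log2 level of each of the 40 genes (rows, grouped by role) in each of the 22 samples (columns), minus the mean of the 6 knockout spleens; red is higher and blue lower. The 9 lines are red for most genes and line 9 is the highest line for 30 of the 40 genes, while all 7 wild-type spleens are blue in the Odc1 row.

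RNA polymerase I was represented by 3 subunits, of which 2 rose and 1 was not called. Polr1a, its largest subunit, ranged from 3.65 to 4.51 with a median of 4.19 in the lines, from 2.79 to 3.07 (median 2.90) in wild-type spleens and from 2.88 to 3.17 (median 3.12) in knockout spleens. Every line lay above every spleen. Polr1a was 1.01 ± 0.13 higher in lines than in knockout spleens (adjusted p = 3.28e-07). Polr1c, a subunit shared with RNA polymerase III, was at 4.34 to 5.19 in the lines and at 3.65 to 3.93 in knockout spleens, a difference of 1.09 ± 0.12 (adjusted p = 3.90e-08). Polr1b, the second-largest subunit, was not apart, since the lines (-0.28 to 0.95) overlapped both the knockout (-0.13 to 0.65) and the wild-type spleens (-0.30 to 0.76). Its difference was 0.24 ± 0.18 (adjusted p = 0.248).

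Of the 6 snoRNP proteins measured, 5 rose against knockout spleens and all 6 against wild-type spleens. Nop58, a core protein of the box C/D particles that guide methylation, was at 4.02 to 4.79 (median 4.15) in the lines, 2.83 to 3.49 (median 3.16) in spleens of knockout and 2.52 to 3.06 (median 2.67) in those of wild-type mice. The 3 groups were ordered lines, knockout, wild type by their medians, and the lines stood apart from both spleen groups. The step between the spleen groups was not called in the limma fit with sex (0.16 ± 0.12, adjusted p = 0.498). Nop58 was 1.10 ± 0.12 higher in lines than in knockout spleens (adjusted p = 5.71e-08) and 1.47 ± 0.12 higher than in wild-type spleens. Fbl, the methyltransferase of the same particles, was at 6.66 to 7.30 in the lines and 6.28 to 6.68 in knockout spleens. Its difference was smaller, 0.36 ± 0.10 (adjusted p = 0.00358), and -0.10 (not called) with quantile normalisation.

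The box H/ACA particles, which guide pseudouridylation, were represented by Gar1, Nhp2 and Dkc1. Gar1, a core protein, was at 0.77 to 2.41 (median 1.32) in the lines against -0.57 to 0.70 (median 0.40) in knockout spleens, a difference of 1.15 ± 0.21 (adjusted p = 3.95e-05). Nhp2, another core protein, was at 4.10 to 5.18 (median 4.80) in the lines against 3.53 to 3.76 (median 3.69) in knockout spleens, and the difference was 1.07 ± 0.13 (adjusted p = 1.47e-07). For both genes no line overlapped a knockout spleen. The lines and the knockout spleens overlapped for Dkc1, the pseudouridine synthase itself, which rose by 0.68 ± 0.19 (adjusted p = 0.00268). Nolc1, a nucleolar chaperone of snoRNPs, spread from 1.92 in line 3 to 3.65 in line 9 and was not called against knockout spleens (0.33 ± 0.20, adjusted p = 0.141). Without line 3 its difference was 0.44 (adjusted p = 0.0271), and its second probe gave -0.41 (adjusted p = 0.0279 over all probes). Against wild-type spleens it rose by 0.57 ± 0.19 (adjusted p = 0.00973), a call that was lost with slide as a fixed term (0.42, adjusted p = 0.0849), with quantile normalisation (0.29, adjusted p = 0.155) and with the mean of its probes (0.16, adjusted p = 0.36).

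All 4 nucleolar chaperones and regulators rose against both spleen groups, and 2 of these calls against knockout spleens, of Gnl3 and Mybbp1a, were lost with slide as a fixed term. Ncl, nucleolin, was at 6.51 to 7.31 (median 6.92) in the lines, 5.75 to 6.04 (median 5.92) in knockout spleens and 5.46 to 5.97 (median 5.56) in wild-type spleens. Npm1, nucleophosmin, was at 6.28 to 6.95 (median 6.71), 5.51 to 5.94 (median 5.69) and 5.35 to 5.66 (median 5.45) in the same order. For both genes the lines lay above every spleen, by 1.0 ± 0.12 for Ncl (adjusted p = 1.91e-07) and 0.93 ± 0.11 for Npm1 (adjusted p = 9.00e-08) against knockout spleens. The probes of Ncl disagreed, with 0.99 from 1 other probe and 0.14 and 0.06, not called, from the remaining probes. Gnl3, nucleostemin, reached 2.87 in line 9 and rose by 0.58 ± 0.20 (adjusted p = 0.015), and by 1.05 ± 0.19 against wild-type spleens. With slide as a fixed term its difference from knockout spleens was 0.33 (adjusted p = 0.15), and it was 0.38 (adjusted p = 0.092) with quantile normalisation and 0.49 (adjusted p = 0.078) with normexp. Mybbp1a, a nucleolar repressor of transcription, rose by 0.36 ± 0.14 (adjusted p = 0.0238), a call that was lost without knockout spleen 5 (0.32, adjusted p = 0.0589) and with slide as a fixed term (0.24, adjusted p = 0.141).

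Of 8 small subunit factors 5 rose against knockout spleens. Wdr43, a protein of the processome that first folds the small subunit, was at 1.51 to 2.14 (median 1.86) in the lines against 0.83 to 1.16 (median 0.92) in knockout spleens and 0.63 to 1.20 (median 0.71) in wild-type spleens. No line reached down to the spleens, and the difference from knockout spleens was 0.88 ± 0.11 (adjusted p = 3.08e-07). Nob1, the endonuclease that makes the final cut in the small subunit RNA, rose by 0.71 ± 0.12, Tsr1, a late assembly factor, by 0.62 ± 0.13, Rrp9 of the processome by 0.44 ± 0.13 and Nop14 by 0.41 ± 0.11. Line 7 was low for Rrp9 (0.60, below all 6 knockout spleens), and the second probe of Nop14 gave -0.04 (not called). The processome scaffolds Heatr1 (0.10 ± 0.14, adjusted p = 0.539) and Utp20 (0.06 ± 0.15, adjusted p = 0.730) were not called, nor was Rrp12, an export factor (0.08 ± 0.22, adjusted p = 0.753). The lines overlapped both spleen groups in these 3 genes, and line 9 was the highest line, with Heatr1 at 1.92 to 3.00 in lines and 2.05 to 2.39 in knockout spleens. Against wild-type spleens Rrp12 was called without wild-type spleen 6 (0.46, adjusted p = 0.0470).

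Large subunit factors were the largest role, and 10 of 13 rose in both comparisons. Wdr12, Pes1 and Bop1 form the PeBoW complex, which is needed to process the precursor of the large subunit RNAs. Wdr12 was at 2.52 to 2.99 (median 2.89) in the lines, 1.26 to 1.60 (median 1.45) in knockout spleens and 1.06 to 1.47 (median 1.25) in wild-type spleens. The lines were far apart from both spleen groups and close to each other. Wdr12 was 1.38 ± 0.10 higher than in knockout spleens, or 2.61-fold (adjusted p = 3.57e-11), with 1.29 and 0.64 on its other probes. Its partners moved less. Pes1, at 4.07 to 4.65 in the lines and 3.81 to 4.16 in knockout spleens, rose by 0.41 ± 0.10 (adjusted p = 8.38e-04) on this probe, was at -0.03 with quantile normalisation and at -1.01 on its second probe (adjusted p = 1.26e-04 over all probes). Bop1, at 2.98 to 4.31 in the lines and 2.95 to 3.57 in knockout spleens, was not called (0.21 ± 0.17, adjusted p = 0.278).

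The other large subunit factors ranged from Nop16 down to Ddx21. Nop16 was at 2.24 to 3.27 (median 3.05) in the lines against 1.57 to 1.74 (median 1.59) in knockout spleens, 1.26 ± 0.14 higher (adjusted p = 4.92e-08), with all lines above all spleens and 0.48 on its second probe. Rrp1b rose by 0.83 ± 0.13, the RNA helicase Ddx18 by 0.78 ± 0.14, Wdr74 by 0.78 ± 0.10, Mrto4, which holds the place of a ribosomal stalk protein, by 0.64 ± 0.14, and Ppan by 0.62 ± 0.12. Each of these 5 was higher in every line than in every knockout spleen. Ebna1bp2 rose by 0.55 ± 0.11 and the RNA methyltransferase Nop2 by 0.52 ± 0.15. With quantile normalisation the differences were 0.09 for Ebna1bp2 (adjusted p = 0.413), 0.11 for Nop2 (adjusted p = 0.455) and 0.14 for Ppan (adjusted p = 0.198), none of them called. The helicase Ddx21, at 0.36 in line 2 and 2.17 in line 9, was not called (0.15 ± 0.20, adjusted p = 0.521). Grwd1, a chaperone of a ribosomal protein, was not called either (0.34 ± 0.17, adjusted p = 0.0725), although without line 7 it was (0.44, adjusted p = 0.0128), and its second probe gave 0.51.

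**Figure D2:**
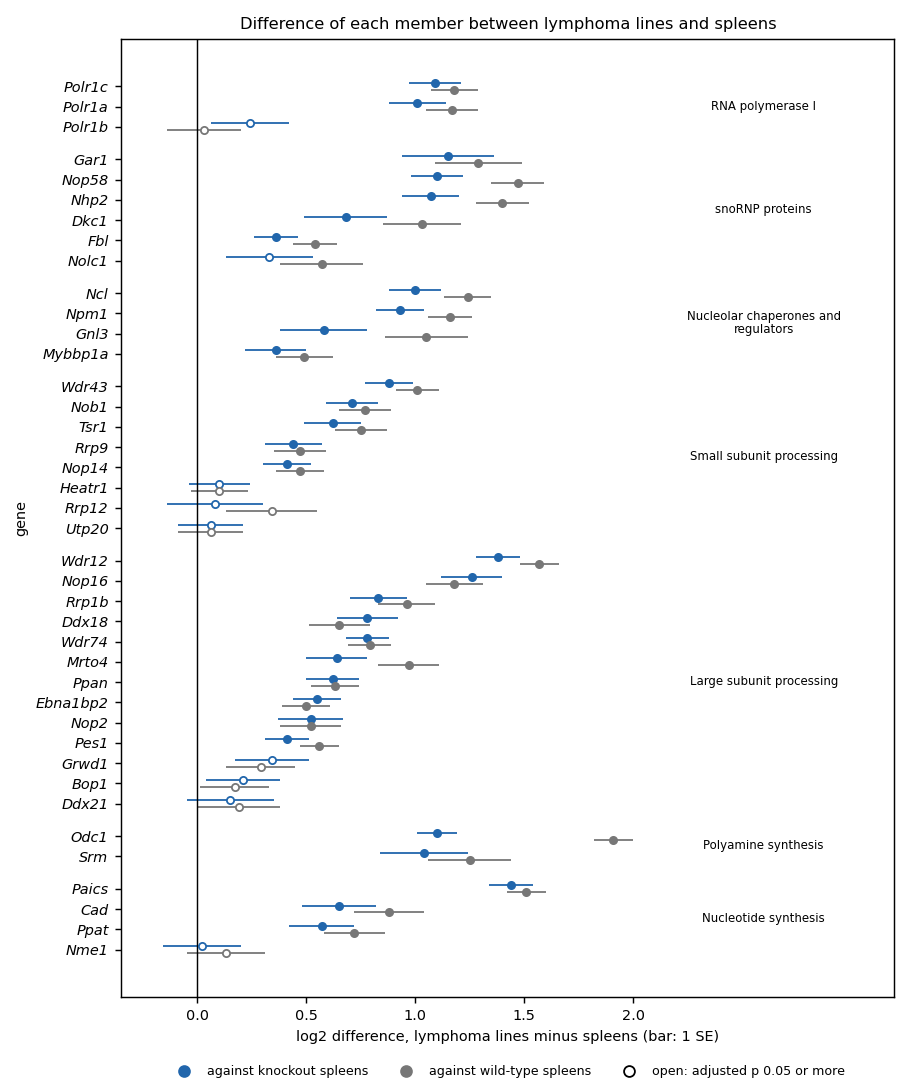
Log2 difference between the lymphoma lines and the knockout (blue) or wild-type spleens (grey) for each of the 40 genes, with bars of 1 standard error; open circles were not called. Odc1 lies farthest to the right against wild-type spleens (1.91) and Paics against knockout spleens (1.44), and the circles of Odc1 are farthest apart.

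Both polyamine enzymes rose. Odc1 was at 7.31 to 7.80 (median 7.66) in the lines, 6.27 to 6.74 (median 6.53) in knockout spleens and 5.55 to 5.89 (median 5.70) in wild-type spleens. The 3 groups did not overlap, with lines above knockout and knockout above wild-type spleens. Odc1 was 1.10 ± 0.09 higher in lines than in knockout spleens (adjusted p = 7.57e-10) and 1.91 ± 0.09 higher than in wild-type spleens, or 3.76-fold (adjusted p = 2.37e-14). Its second probe gave 1.39 and 2.67. Srm, spermidine synthase, was at 2.86 to 4.74 (median 4.06) in the lines and 2.63 to 3.11 (median 2.98) in knockout spleens, 1.04 ± 0.20 higher (adjusted p = 7.68e-05), and line 7 was the 1 line among the spleens.

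Of 4 nucleotide enzymes 3 rose. Paics, which carries out middle steps of purine synthesis, was at 3.66 to 4.35 (median 4.06) in the lines, 2.50 to 2.79 (median 2.63) in knockout spleens and 2.44 to 2.88 (median 2.55) in wild-type spleens. The gap between the lowest line and the highest spleen was wide, and the difference from knockout spleens was 1.44 ± 0.10, or 2.72-fold (adjusted p = 1.74e-11), with 1.51 on its second probe. Ppat, which catalyses the first committed step of purine synthesis and starts next to Paics, was at 0.46 to 1.92 in the lines and 0.28 to 0.71 in knockout spleens. It rose by 0.57 ± 0.15 (adjusted p = 0.00188), with 1.14 on its second probe. Cad, the enzyme of the first steps of pyrimidine synthesis, rose by 0.65 ± 0.17 (adjusted p = 0.00179). Its other probes gave 0.56, 0.51 and 0.37, the last not called (adjusted p = 0.0549 over all probes), and with quantile normalisation the difference was 0.31 and not called (adjusted p = 0.069). Nme1, a nucleoside diphosphate kinase, was at 2.25 to 3.85 (median 3.06) in the lines and 2.90 to 3.07 (median 3.04) in knockout spleens. The lines lay on both sides of the spleens, and the difference was 0.02 ± 0.18 (adjusted p = 0.918).

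Genes with an E-box in the window did not all rise. Of the 9, 6 rose against knockout spleens (0.02 to 1.44), and of the 26 measured genes whose window had none, 22 did (0.10 to 1.38). Among all genes tested 41.6% rose. E-boxes outside the window were not searched, so the 26 genes may hold some there, and a relation of the motif to the rise was not tested. Nme1, with an E-box in each of its windows, was among those not called.

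**Figure D3:**
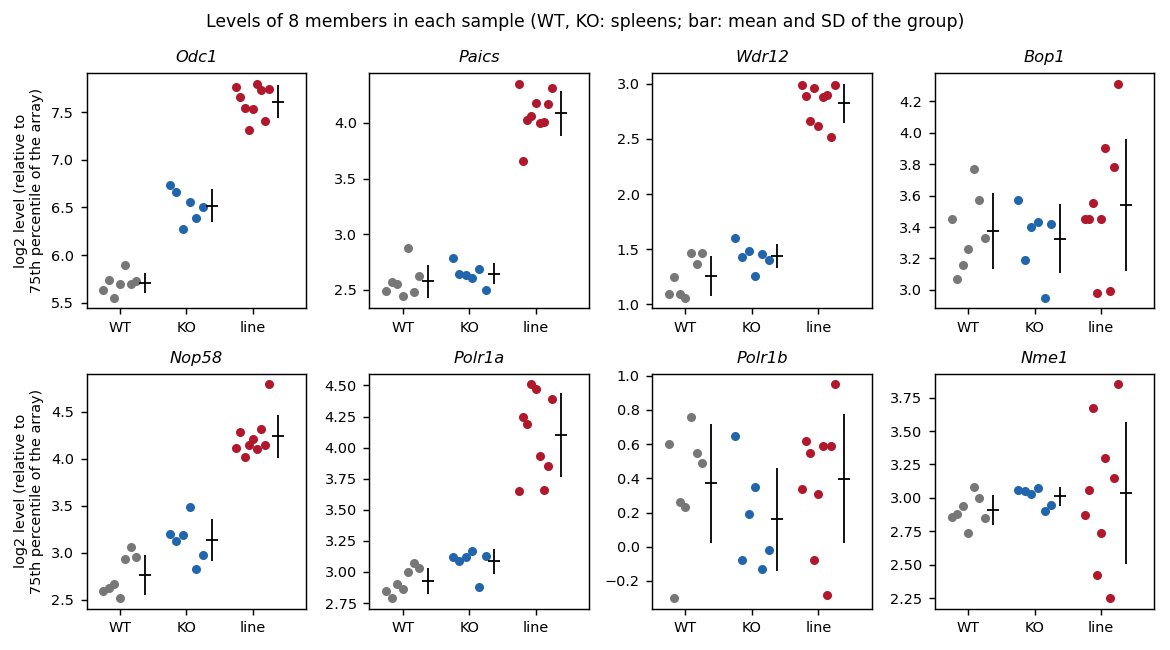
Log2 level of 8 genes in each sample, in wild-type spleens (grey, n = 7), knockout spleens (blue, n = 6) and lines (red, n = 9), with the group mean and SD beside the points; the axes differ between panels and do not start at 0. Odc1 forms 3 separate steps, Paics, Wdr12, Nop58 and Polr1a separate lines from spleens, and Bop1, Polr1b and Nme1 overlap.

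Members of the same complex or pathway were then set side by side within each sample. The pairs were picked after their values had been seen, so they are described without a test. Each gene stands for 1 probe, and other probes give other gaps, since the second probes of Paics and Ppat differed between the groups by 1.51 and 1.14, the second probe of Pes1 by -1.01 and another probe of Wdr12 by 0.64. The log2 difference of Wdr12 and Bop1 was 1.17 higher in lines than in knockout spleens, and in 9 of 9 lines it lay beyond all 6 knockout spleens. The same held in 9 of 9 lines for Wdr12 and Pes1 (0.98), Polr1a and Polr1b (0.77), Polr1c and Polr1b (0.86), Paics and Ppat (0.88) and Nop58 and Fbl (0.74). The log2 difference differed less for Odc1 and Srm (0.05), Ncl and Npm1 (0.07) and Polr1a and Polr1c (-0.08), where 1, 4 and 3 of the 9 lines lay beyond the knockout spleens. It was 0.20 for Pes1 and Bop1, 0.48 for Gar1 and Dkc1 and 0.39 for Nhp2 and Dkc1, with 4, 5 and 4 lines beyond them.

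The lines differed among themselves more than the spleens did. The SD was larger in lines than in knockout spleens for 38 of 40 genes, against 85.3% of all genes, with a median SD of 0.33 in lines, 0.15 in knockout spleens and 0.19 in wild-type spleens (0.44, 0.23 and 0.21 over all genes). Line 9 was the highest line for 30 of 40 genes, and its median over the 40 genes was 1.19 above the mean of the knockout spleens. Line 7 was the lowest line for 20 genes, with a median of 0.29. The other 7 lines lay between 0.47 and 0.80. How often lines 9 and 7 were highest or lowest over all genes is not given, so a shift of the whole array cannot be told apart. Among the arrays of lines, that of line 9 had the fewest spots well above background (54.9%). The array of line 7 had the highest median signal (40.26 intensity units). Lines 7, 8 and 9 shared 1 slide that held no spleen, and without that slide 32 of 40 genes rose in either comparison. On the 5 slides that held both, the median difference of the 40 genes between lines and knockout spleens was 0.44 to 0.93, against 0.12 to 0.26 for all genes.

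Between the spleens of both genotypes, 1 of the genes was called on the probe used. In a limma fit of the 13 spleens with a term for sex, 1 of 40 genes was higher in knockout spleens and 0 were lower (3 and 3 at an unadjusted p under 0.05), against 1.66% and 2.16% of all genes, and the median difference was 0.00 (-0.05 over all genes). The gene was Odc1, at 0.75 ± 0.11 (adjusted p = 0.00443), with every knockout spleen above every wild-type spleen, as for 2.27% of all genes. Second probes of Ppat and Ebna1bp2 were also called by limma with the sex term (adjusted p = 0.0451 and 0.0372 over all probes). Their mean differences without the sex term were 0.36 and -0.64. Because all males were wild type, the fit with sex sets the 6 knockout spleens against the 3 female wild-type spleens. The males add only to its estimate of the spread. A limma fit of the female spleens alone therefore had to give the same 0.75 (adjusted p = 0.0181) and is no separate check. On the 5 slides with both genotypes, with the sexes pooled, Odc1 was 0.70 to 0.98 higher. With normexp background correction the difference was 1.02 and not called (adjusted p = 0.337), a setting under which 2 of all genes (0.0146%) were higher. Of 13 other polyamine genes 1 was called between the genotypes. It was Amd1, which makes the aminopropyl donor for spermidine and spermine (0.79, adjusted p = 0.0263), and it was not called between lines and knockout spleens (-0.29 ± 0.27, adjusted p = 0.357). Some marker lists moved with the same contrast. Of 8 plasma cell markers 4 were higher in knockout spleens (Jchain, Prdm1, Tnfrsf17 and Derl3), with mean levels of 1.80 to 2.31 against 1.08 to 1.46, and of 10 natural killer cell markers 6 were lower, with mean levels of 1.17 to 1.96 against 1.83 to 2.31. Of 19 proliferation genes 1, Pcna, was higher (0.45, adjusted p = 0.048), and their median difference was 0.59. All 10 neutrophil markers (median difference 0.93) and all 9 erythroid markers (median 1.01) also lay above 0. By limma 0 of either list were called, and 0 and 2 had an unadjusted p under 0.05. The part of these lists in the difference of Odc1 was not tested.

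Among the wild-type spleens these genes differed between females and males. The titles of the females all carry higher numbers than those of the males, so sex and number series cannot be told apart here. In 17 of 40 genes all 3 females lay above all 4 males (9.91% of all genes), and in 0 genes all females lay below (3.06%). The median difference, females minus males, was 0.24, against 0.07 over all genes. Wild-type spleen 2, a male, was the lowest wild-type spleen for 24 genes. All knockout spleens were female, and without the sex term 3 genes were called between genotypes, Odc1 (0.81), Gnl3 (0.47, adjusted p = 0.0129) and Nhp2 (0.32, adjusted p = 0.0237).

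Myc itself was lower in the lines, where these genes were higher. It was at 2.14 to 3.53 (median 2.59) in the lines, 5.09 to 5.78 (median 5.27) in knockout spleens and 4.31 to 5.01 (median 4.70) in wild-type spleens, without overlap between any groups. The step of Myc between the spleen groups was not called in the limma fit with sex (0.62 ± 0.18, adjusted p = 0.0749). In the lines Myc fell by 2.70 ± 0.18 against knockout spleens (adjusted p = 1.81e-11). Mycn was not well above background in any line (measured mean -8.16), and at the lowest level that counted as signal on those arrays (-6.19) it was at least 4.39-fold lower than in knockout spleens (-4.06, fitted adjusted p = 2.03e-12). Mycl fell by 2.15 ± 0.33 (adjusted p = 6.47e-06), but line 8 (-1.75) lay among the knockout spleens (-2.12 to -1.63). The other lines ranged from -5.07 to -3.60. Max, the partner of MYC, was 0.35 ± 0.15 higher than in knockout spleens (adjusted p = 0.0413) and -0.09 ± 0.14 from wild-type spleens (adjusted p = 0.587). Of 13 genes of the MYC network 3 rose (Max, Mlx and Mxd3) and 7 fell, among them Mxd1, a MYC antagonist (-2.58 ± 0.30).

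Across the 9 lines, no relation of Myc with the 40 genes passed adjustment. Pearson's r was above 0 for 22 genes, with a median of 0.09. Of 40 exact permutation tests of r, 1 had an unadjusted p under 0.05 and 0 had an adjusted one. That gene was Wdr43 (r = 0.78, exact p = 0.0121, adjusted p = 0.484; rho = 0.80, exact p = 0.0138, adjusted p = 0.344), and r was 0.57 without lines 6 and 2. Paics had the lowest r (-0.66, exact p = 0.0612, adjusted p = 0.822; rho = -0.78, exact p = 0.0172, adjusted p = 0.344), and r was -0.48 without lines 6 and 2. All values share the scaling of each array.

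**Figure D4:**
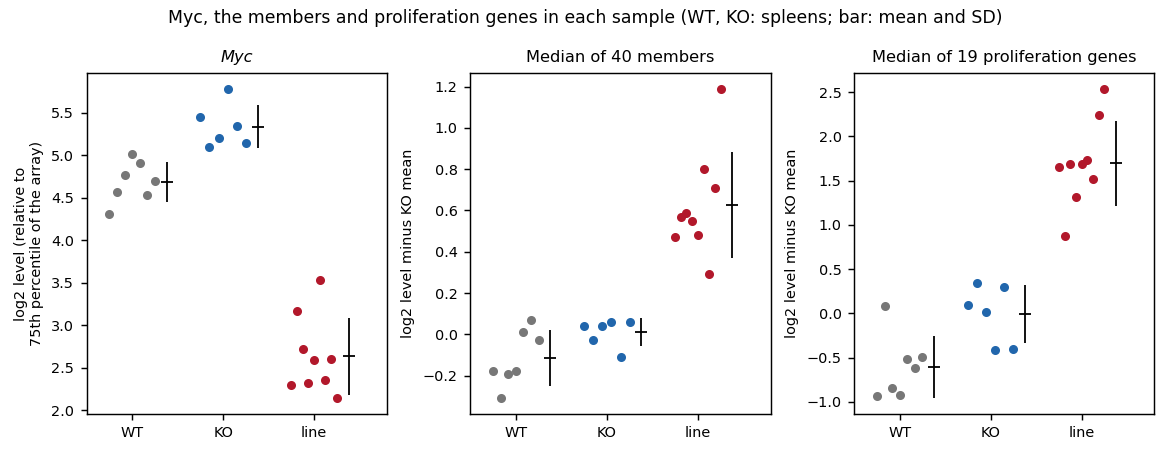
Log2 level of Myc, and the median over the 40 genes and over 19 proliferation genes relative to the mean of the knockout spleens, in each sample; the bars give the mean and SD of wild-type spleens (n = 7), knockout spleens (n = 6) and lines (n = 9). The lines are the lowest group for Myc (2.14 to 3.53) and the highest group for the 40 genes (0.29 to 1.19) and for the proliferation genes (0.88 to 2.54).

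Other genes of the same pathways were counted against knockout spleens from fixed lists, beside 41.6% of all genes that rose and 28.9% that fell. Of 99 other ribosome biogenesis genes 76 rose and 5 fell (median 0.59). The largest changes without overlap were Shq1, an assembly chaperone of Dkc1 (1.48 ± 0.17), the processome protein Utp6 (1.41 ± 0.14) and Pno1, the partner of Nob1 (1.32 ± 0.12), and downward the processome protein Krr1 (-0.96 ± 0.15) and Tsr2 (-0.63 ± 0.11). Of 14 genes of the RNA exosome, which trims the precursor, 11 rose, such as Mphosph6 (1.92 ± 0.11), Dis3 (1.19 ± 0.15) and Exosc2 (0.91 ± 0.14). Of 9 other RNA polymerase I genes 6 rose, among them Polr1d (0.99 ± 0.16) and Polr1e (0.72 ± 0.11), whereas against wild-type spleens 6 rose and 3, the factors Taf1a, Taf1c and Ttf1, fell. Of 20 RNA polymerase III genes 12 rose, led by Polr3g (1.46 ± 0.11), Gtf3c3 (1.37 ± 0.08) and Gtf3a (1.03 ± 0.10), and 1 fell, Polr3b (-0.19 ± 0.08). Of 81 ribosomal protein genes 53 rose, with a median of 0.34, and Rps27l (1.54 ± 0.12), Rpl14 (1.41 ± 0.13) and Rpl31 (1.30 ± 0.10) changed most. Many ribosomal protein genes have near-identical copies, which a probe may not tell apart. Of 41 genes on the list of translation factors 40 rose, with a median of 0.79. They were led by Eif2s2 (1.76 ± 0.14), Eif4ebp1, which encodes a repressor of translation (1.67 ± 0.19), and Eif4b (1.51 ± 0.17).

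Pathways that supply nucleotides and polyamines were counted in the same way, beside 41.6% of all genes that rose and 28.9% that fell. Of 11 genes on the list for one-carbon folate metabolism, which feeds purine synthesis, 9 rose with a median of 1.89. They were led by Mthfd2 (3.53 ± 0.19), Psat1, an enzyme of serine synthesis (3.13 ± 0.12), and Shmt1 (2.24 ± 0.18). Of 15 other purine genes 14 rose (median 0.86), among them Adssl1 (2.18 ± 0.46), Pfas (1.31 ± 0.21) and Gmps (1.21 ± 0.11). Of 14 other pyrimidine genes 11 rose and 1 fell (median 1.03), with Uck2 at 2.08 ± 0.18, Dut at 1.62 ± 0.17, Nme6 at 1.52 ± 0.20 and Nme3 at -0.94 ± 0.15. Of 13 other polyamine genes 7 rose and 3 fell (53.8% and 23.1%), which is near the shares of all genes. Spermine synthase Sms (1.27 ± 0.08) and the antizymes Oaz2 (0.80 ± 0.09) and Oaz1 (0.73 ± 0.09), which restrain ornithine decarboxylase, rose. Sat1, which starts polyamine breakdown, fell (-1.17 ± 0.13). Arg1 and Arg2, which make ornithine, also fell. Arg1 was above background in 0 of the 9 lines and Arg2 in 1.

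**Figure D5:**
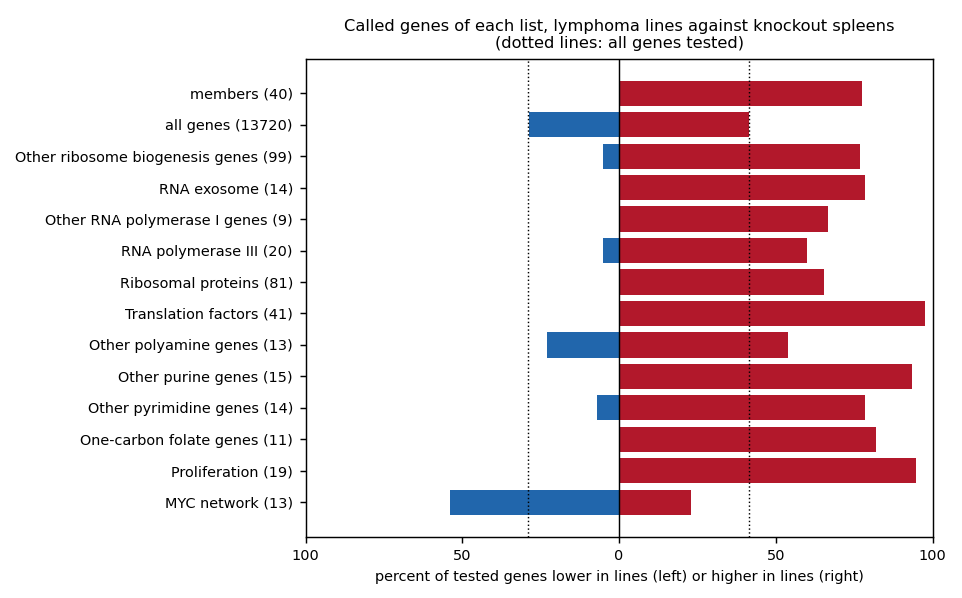
Percent of the tested genes of each list (number in brackets) that were higher (red, right) or lower (blue, left) in lymphoma lines than in knockout spleens; dotted lines mark the shares of all 13720 genes, 41.6% and 28.9%. Translation factors, proliferation and purine genes have the longest red bars, and the MYC network has the longest blue bar among the lists drawn, which leave out the cell type markers.

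Proliferation genes and markers of other cell types moved with the same contrast, and their part in the differences above was not tested. Of 19 proliferation genes 18 rose (median 1.69), with Ccnb1 at 2.77 ± 0.30, Foxm1 at 2.74 ± 0.25, Top2a at 2.34 ± 0.28 and Mki67 at 1.88 ± 0.31. Their mean level ranged from 3.30 to 4.84 in the lines and from 1.39 to 2.75 in the spleens. Line 9, the highest for most of the 40 genes, also had the highest median of these genes (2.54 above the knockout mean), while line 7, often the lowest, was at 1.52 and line 2 was lowest at 0.88.

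Of 11 macrophage, 10 neutrophil and 10 natural killer cell markers all fell in the lines, and of 9 erythroid markers 8 did. The mean level of the macrophage markers ranged from -5.09 to -3.55 in the lines and from 2.24 to 3.25 in the spleens. The neutrophil markers were at -8.18 to -5.44 and 1.65 to 5.45 in the same order, the erythroid markers at -5.48 to -4.05 and 0.23 to 3.24, and the natural killer cell markers at -7.72 to -5.59 and 1.17 to 2.31. The neutrophil genes Elane, Mmp8, Mmp9 and Retnlg, the erythroid gene Epb42, and Klrk1, Gzmb, Eomes and Klra8 of natural killer cells were not well above background in any line. Of 11 B cell markers 3 rose and 4 fell, with a mean level of 1.33 to 2.23 in the lines and 3.13 to 3.71 in the spleens. Fcer2a was well above background in 1 of the 9 lines and Cr2 in 8. Of 8 plasma cell markers 3 rose (Derl3, Mzb1 and Xbp1) and 3 fell, and their mean level ranged from 0.82 to 3.40 in the lines and from 1.08 to 2.31 in the spleens. Of 10 T cell markers 3 rose and 6 fell, with mean levels of -4.63 to -2.56 in the lines and -1.84 to -1.31 in the spleens, and Thy1, Cd8a and Trat1 were not well above background in any line. Cd3g, among those that rose, was at -2.21 to 4.41 in the lines and -5.01 to -4.39 in knockout spleens. Its difference was 7.35 ± 0.78.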

How the data were processed

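Per the file headers, the intensity values of the scanner files had been background-subtracted by Agilent's Feature Extraction 10.7.1.1 before they were deposited. The authors' deposited value table holds log2 values and served as an alternative. Its columns followed the scanner values (r = 1), and each of its 41174 probes had a median of 0. On each of 23 arrays 1639 control spots were left out, and 1556 spots over all arrays were dropped by the scanner's flags. After averaging the spots of each probe, log2 levels were expressed relative to the 75th percentile of the array, and symbols came from RefSeq accessions (26690 of 41174 probes, 18217 genes). Genes well above background in at least 6 samples were tested through their probe of highest mean with limma 3.58.1 (R 4.3.3) and checked on simulated data. The 3 groups were fitted together, and the 13 spleens with genotype and sex. Named are all 40 measured genes, up to 3 called genes without overlap per direction of each other list, genes of the MYC family, Mki67, Atm and Cd3e. Polr3b, Taf1a, Taf1c, Ttf1, Amd1, Pcna, Mlx, Mxd3, Fcer2a, Cr2 and the plasma cell markers were named after their values were seen. The genes and lists were chosen with earlier results of these data known. The number of arrays limits the precision.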

Additional observations from a re-analysis of the deposited data

Results flagged for a closer look

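In each group of each of the 40 genes, the highest and the lowest sample were compared with their nearest neighbour by Dixon's criterion. Of 120 groups 14 held a sample that stood apart, 7 among the lines, 3 among knockout spleens and 4 among wild-type spleens. Chance alone flags about 1 in 20 groups. All values are log2 levels relative to the 75th percentile of the array.

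Among the lines, line 9 stood above the rest for Fbl (7.30, next line 6.97), Nop58 (4.79, next 4.32), Nop14 (2.13, next 1.69), Mybbp1a (2.42, next 1.81) and Ppat (1.92, next 1.18). Line 7 stood below for Rrp9 (0.60, next 1.27) and line 2 for Paics (3.66, next 4.00).

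Among knockout spleens, spleen 6 stood below for Gar1 (-0.57, next 0.30), spleen 5 for Polr1a (2.88, next 3.09) and spleen 2 for Tsr1 (0.51, next 0.84). Among wild-type spleens, spleen 5 stood above for Nhp2 (3.67, next 3.41), Ebna1bp2 (4.31, next 4.14) and Paics (2.88, next 2.62), and spleen 6 for Rrp12 (-0.50, next -1.16).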

How the results depend on the processing

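The counts of called genes stayed within 1.5 times their main value, with the exceptions given here. The settings were median and quantile scaling, normexp on the median signal, the value table and both filters. Slide was also taken as a fixed or random term, and the slide of lines only was left out. The value table and the filters are no separate checks of these genes. The value table differed from the scanner values by offsets per probe and per array, so it tried only another offset per array. The probe used for each gene was well above background in all samples. The filters could therefore not change the levels of these genes, only the set of genes they were fitted and adjusted with. The median differences were 1.29 (knockout) and 1.41 (wild type) with arrays centred on the median. Between genotypes, normexp gave 0 higher genes (1 in the main fit) and a median of 0.17, and the fit without sex gave 3 higher genes and a median of 0.13. With the mean of all probes 1 gene was lower in lines than in knockout spleens and 1 between genotypes (Ebna1bp2, -0.37, adjusted p = 0.0457). Signs turned for Fbl (-0.10) and Pes1 (-0.03) with quantile scaling, and for Pes1 with the mean of its probes (-0.30, adjusted p = 0.0369, and -0.18 against wild-type spleens). The cause was not tested. Leaving out 1 sample at a time gave 30 to 32 higher genes, 0 lower and medians of 0.56 to 0.68 against knockout spleens, 32 to 33, 0 and 0.71 to 0.81 against wild-type spleens, and 1, 0 and -0.04 to 0.04 between genotypes. The files held no mean signal, so normexp used the median signal. No paired analysis was possible because the replicate numbers were given in accession order and pair no samples.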
